A study of Homo sapiens with 6 samples.

Results

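A set of 8 genes of iron storage, uptake and heme breakdown was followed in RCC4, a human kidney cancer line of the clear cell type. They were picked by symbol, as FTH1, FTL, TFRC, HMOX1, NCOA4, IREB2, ACO1 and STEAP3, and they are 8 of the 61541 genes listed in each count file. All 8 passed the filter on low counts. The labels give 3 untreated cultures, and 3 cultures kept for 24 h with interferon gamma (IFNγ, 1000 U/mL) and tumour necrosis factor (TNF, 25 ng/mL). Both groups are the same line in the same medium with serum, each replicate came from 3 flasks, and the labels name no vehicle and no iron supplement or chelator. Poly(A) RNA was read as native strands by direct RNA nanopore sequencing, so 1 read stands for 1 RNA molecule captured at its 3′ end.

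Cells keep iron inside a shell of ferritin heavy (FTH1) and light (FTL) chains, and take it up through the transferrin receptor (TFRC) with the help of an endosomal reductase (STEAP3). NCOA4 carries ferritin to the lysosome for release of its iron, and heme oxygenase 1 (HMOX1) frees iron from heme. Iron regulatory proteins, the products of ACO1 and IREB2, bind hairpins called iron responsive elements when iron is scarce. Bound at the 5′ end of a ferritin RNA they hold back its translation, and bound in the 3′ untranslated region of TFRC RNA they protect that RNA from decay.

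Matches to the element pattern are shown because they divide the 8 genes. Some have a match at the 5′ end, some have matches at the 3′ end and some have none. The pattern searched was a C, any 5 bases, the loop CAGTGN, and 5 bases that pair with the first 5, G-T pairs allowed, on the RNA strand of GENCODE 29 transcripts (GRCh38). Each run below is 29 bases, 5′ to 3′, written as DNA, with the loop in capitals.
FTH1, 5′ untranslated region, chr11:61967574-61967602, minus strand: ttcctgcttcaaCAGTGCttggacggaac
FTL, 5′ untranslated region, chr19:48965335-48965363, plus strand: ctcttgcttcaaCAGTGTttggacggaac
TFRC, 3′ untranslated region, chr3:196050979-196051007, minus strand: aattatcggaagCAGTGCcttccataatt
TFRC, 3′ untranslated region, chr3:196050575-196050603, minus strand: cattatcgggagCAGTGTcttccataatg
TFRC, 3′ untranslated region, chr3:196050510-196050538, minus strand: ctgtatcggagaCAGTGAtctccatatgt
TFRC, 3′ untranslated region, chr3:196050463-196050491, minus strand: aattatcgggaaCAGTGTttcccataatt

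The FTH1 and FTL elements were identical at 26 of 29 bases and differed by T1C, C4T and C18T, with the FTH1 base first and positions counted from the 5′ end of the printed run. The pattern lay within the first 100 bases of a coding transcript in 23 of 19684 protein-coding genes (0.117%), and anywhere in a coding transcript in 291 (1.48%). TFRC, with 4 matches in 1 transcript, was the 1 gene with 4 or more. No match was found in coding transcripts of HMOX1, NCOA4, IREB2, ACO1 or STEAP3. A match describes the letters only and does not show that a protein was bound in these cells. Elements that depart from this pattern are not found by it, so no match does not show that an element is absent.

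Library totals ran from 3626000 to 4406296 counts, and levels are given as CPM, in which every library is brought to one total, with TMM factors between libraries. All 5 genes checked as responders to the cytokines (IRF1, CXCL10, GBP1, ICAM1 and TNFAIP3) were called higher, with a summed level of 64.4 to 82.4 CPM in untreated and 4572 to 6069 CPM in treated libraries. All 10 renal carcinoma markers were detected, with sums of 7158 to 8796 CPM in untreated and 11025 to 15564 CPM in treated libraries. Of these, VIM and NNMT were called higher and PAX8 was called lower (145 ± 16.4 to 84.1 ± 11.5 CPM, edgeR adjusted p 0.0316). Of the other 7, CP did not pass the filter on low counts and was not tested, and the rest were not called. Of 9 leukocyte and macrophage markers, PTPRC, CD163, LYZ and CD3E were at 0, as was CD68, where 82.6% of the last 500 exonic bases are shared with another gene. Their summed level was 2.96 to 5.76 CPM in untreated libraries, all of it CSF1R, and 1.35 to 2.02 CPM in treated ones. CSF1R was called lower (4.72 ± 1.53 to 1.24 ± 0.179 CPM, edgeR adjusted p 0.0314), with 4 to 22 reads per library. The part of these marker levels in the results was not tested. Of 8 erythroid markers, 6 were at 0 and the sum did not exceed 0.285 CPM. Among those at 0 was EPB42, where 52.4% of the last 500 exonic bases are shared with another gene.

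Replicate 3 stood apart in several iron genes in both groups. HMOX1 in replicate 3 was 3.09 times the mean of the other replicates in untreated and 8.01 times that mean in treated cells. For FTH1 these ratios were 1.79 and 2.58, for TFRC 2.89 and 2.17, and for FTL 1.28 and 1.57. Over all 10067 genes tested, untreated replicate 3 lay more than 2-fold from its group's other libraries in 16.8% of genes, and treated replicate 3 in 4.23%. The shares were 10.1% and 1.85% for untreated replicates 1 and 2, and 8% and 5.98% for treated replicates 1 and 2. Across all genes treated replicate 3 was therefore the least apart of its group, and it stood apart in the iron genes named above. Untreated replicate 3 also had the highest count-weighted exonic length, 4484 bases against 4204 to 4376 in the other 5 libraries, and the highest mitochondrial share, 6.13% against 4.59% to 5.61%. The part of these properties in the results was not tested. The main values are therefore given with and without replicate 3 of both groups, a setting added after the data were seen. Because replicate 3 was singled out in part on values of these same genes, p values of that fit are no independent support.

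ACO1 was the one gene of the 8 that rose past the threshold, to 2.03 times its untreated mean. FTH1 was higher in every treated library than in any untreated one without passing, and FTL RNA stayed within its own replicate spread, and reads of the heavy chain outnumbered those of the light chain in treated libraries alone. In bulk RNA, fewer cells with a transcript and less of it per cell cannot be told apart. With the threshold at 0.05 for the adjusted p of edgeR's quasi-likelihood fit, 1 of the 8 genes was called higher and 0 lower. Across all 10067 genes tested 8.14% were called, 5.58% higher and 2.55% lower. At an unadjusted edgeR p under 0.05, 2 of the 8 were higher (FTH1 and ACO1) and 1 lower (STEAP3), beside 11% and 8.85% of all genes tested. DESeq2 and limma voom also called 0 of the 8 lower at the adjusted threshold. The median log2 fold change (log2FC) of the 8 was -0.26, against -0.03 for all genes tested. CPM did not overlap between the groups for 3 of the 8 (FTH1 and ACO1 higher, STEAP3 lower), where 25.9% of all genes tested did not overlap, 13.9% higher and 12% lower. A count of 1 called gene in 8 is near the background and is no result about the 8 as a set.

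**Figure D1:**
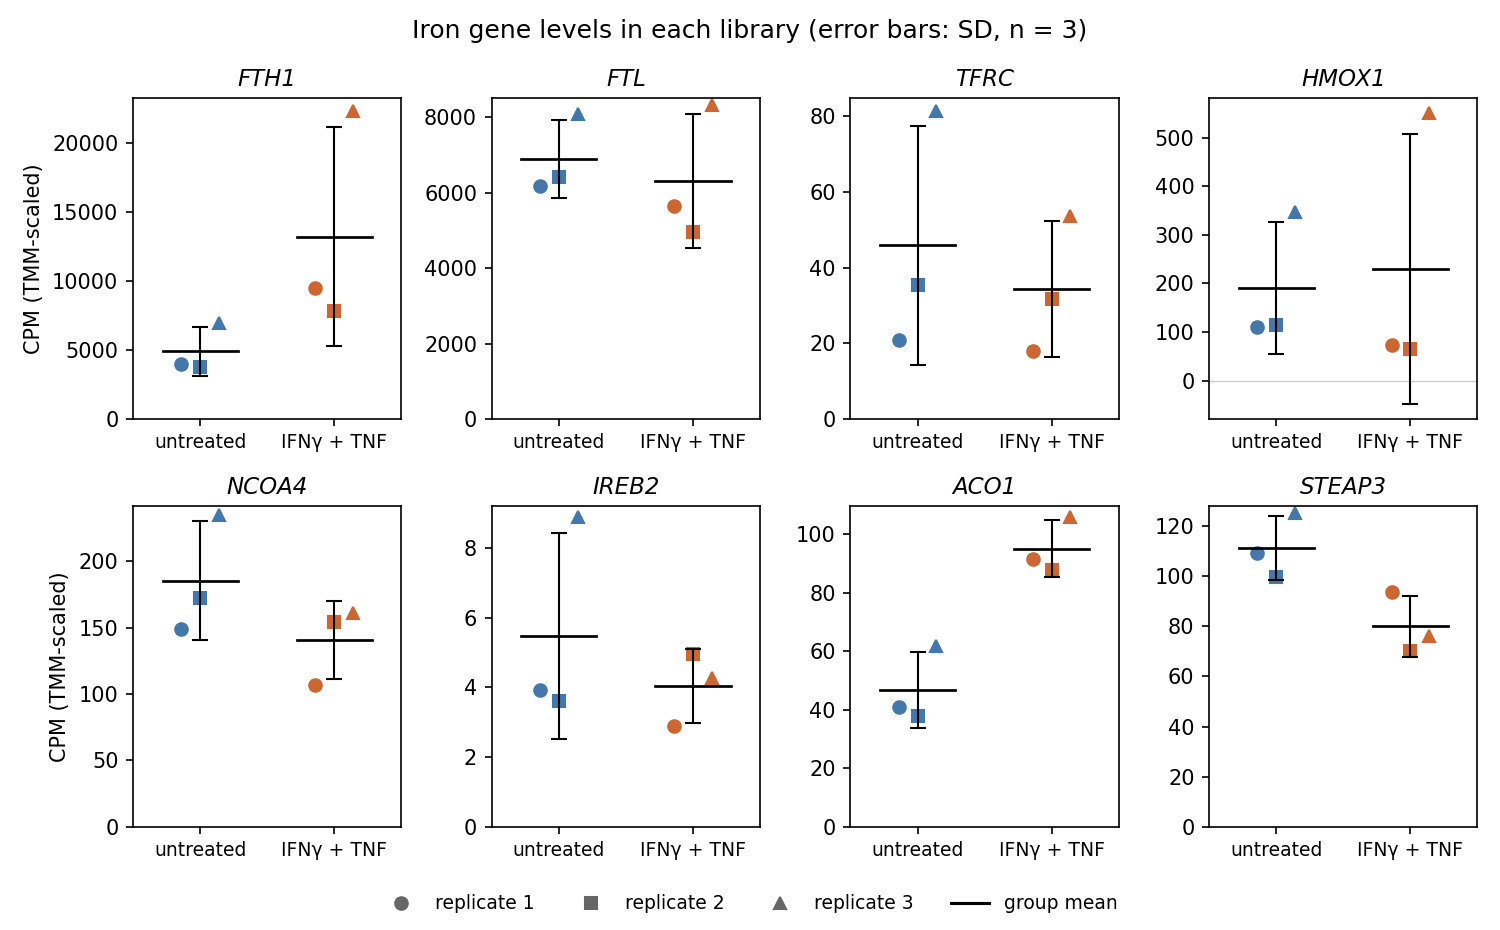
CPM (TMM-scaled, linear axes) of the 8 iron genes in each library, with replicates 1, 2 and 3 as circles, squares and triangles, the group mean as a bar and the SD as error bars (n = 3 each). FTH1 and ACO1 have every treated point above every untreated one, STEAP3 has the reverse, and the replicate 3 triangles lie highest in both groups for FTH1, FTL, TFRC and HMOX1.

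Storage was examined first. FTH1, the chain that oxidises ferrous iron (ENSG00000167996, chromosome 11, 61959718 to 61967634), had 3961, 3798 and 6954 CPM in the untreated libraries, in the order of their replicate numbers. The treated libraries, in the same order, had 9470, 7861 and 22334 CPM. The lowest treated library lay above the highest untreated one, and replicate 3 was the highest in each group. The means were 4904 ± 1777 and 13222 ± 7933 CPM (SD, n = 3 in both groups), which is a log2FC of 1.43 (SE 0.40, 95% interval 0.53 to 2.34). The edgeR adjusted p was 0.0637, so FTH1 was not called over all genes. Without replicate 3 of both groups the log2FC was 1.16 (SE 0.17), a 2.24-fold difference, with an edgeR adjusted p of 0.00281. FTH1 also passed in DESeq2 (adjusted p 0.00231), in edgeR with no filter (2.75e-09) and with the replicate number as a block (2.59e-08). It passed without untreated replicate 3 (0.0097) and without treated replicate 2 (0.0453) as well. The SE was 0.22 with no filter and 0.14 with the block, against 0.40 in the main fit. In 9 of 15 alternatives FTH1 did not pass. Among these were library totals (edgeR adjusted p 0.122), DESeq2 size factors (0.0576), limma voom (0.0772) and omission of untreated replicate 1 (0.095) or 2 (0.215). Without treated replicate 3 its log2FC was 0.83 with an edgeR adjusted p of 0.195, a smaller difference than with that library.

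FTL, the chain that favours formation of the mineral core (ENSG00000087086, chromosome 19, 48965309 to 48966879), had 6189, 6421 and 8087 CPM in untreated libraries and 5659, 4968 and 8326 CPM in treated ones. The groups overlapped, since treated replicate 3 was the highest of the 6 and the other treated libraries were the lowest. Its log2FC was -0.13 (SE 0.21, 95% interval -0.61 to 0.36), at an edgeR adjusted p of 0.848, and -0.24 without replicate 3 of both groups (0.453). The whole interval lay below the value fitted for FTH1.

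Reads of the 2 chains were then set against each other within each library, where scaling between libraries cancels. FTH1 had 15127, 14689 and 30536 reads in untreated libraries beside 23640, 24836 and 35511 reads of FTL, which is 0.64, 0.591 and 0.86 reads of FTH1 per read of FTL. In treated libraries there were 32792, 34829 and 78305 reads of FTH1 beside 19595, 22012 and 29191 of FTL, ratios of 1.67, 1.58 and 2.68. FTL reads outnumbered FTH1 reads in all 3 untreated libraries and FTH1 reads outnumbered FTL reads in all 3 treated ones. The difference on the log2 scale was 1.48, a 2.79-fold shift, with p = 0.1 (exact permutation test, 2-sided), which is the lowest p this design can give (0.2 after Benjamini-Hochberg adjustment over 4 such measures). The log2 difference ran from 1.24 to 1.64 when any 1 library was left out and was 1.40 without replicate 3 of both groups, and replicate 3 had the highest ratio in each group.

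Processed pseudogenes of both ferritin chains are scattered over the genome and could take reads from them. Of 25 FTH1 pseudogene rows 7 held any count, 93 in all over the 6 libraries, which is 0.0451% of the reads of FTH1 and its pseudogenes together. FTH1P20 held 46 of these and FTH1P7 held 36, and FTH1P10, FTH1P5, FTH1P19, FTH1P8 and FTH1P16 held 1 to 4 each. For FTL, 3 of 16 pseudogene rows held 104 counts (0.0671%), 102 of them in FTLP3 and 1 each in FTLP14 and FTLP19. Reads that aligned equally well to a ferritin gene and a pseudogene may not be in these rows, and their number was not tested.

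Ferritin as a whole took 1%, 1.02% and 1.67% of counts in untreated libraries and 1.38%, 1.29% and 2.96% in treated ones. The groups overlapped, because untreated replicate 3 lay above treated replicates 1 and 2. The difference of 0.645 percentage points gave p = 0.5 in the exact permutation test (0.5 adjusted), and it was 0.101 without treated replicate 3 and 0.32 without replicate 3 of both groups. Without replicate 3 of both groups, the treated shares lay above the untreated ones. On TMM-scaled library sizes the difference was 0.774 percentage points (exact permutation p 0.2). Over all 6 libraries no difference in the summed share was detected. The lowest p of this test with 3 libraries per group is 0.1, so it cannot show that the shares were equal.

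**Figure D2:**
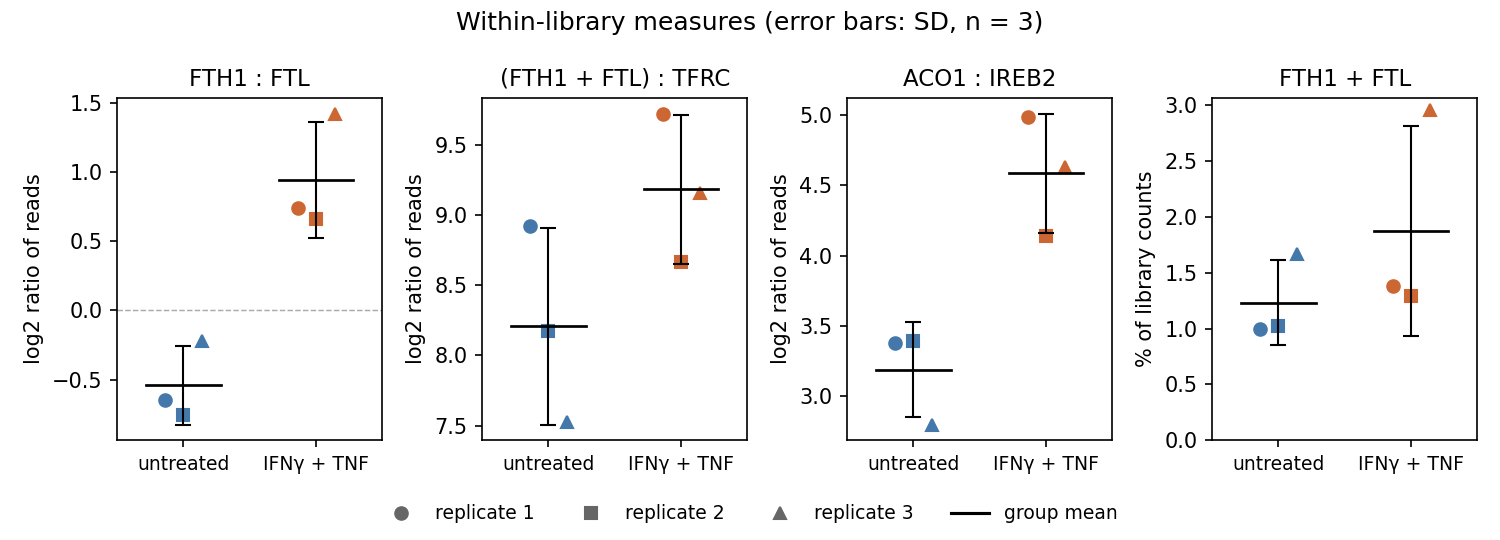
Within-library measures in the 6 libraries, as log2 ratios of reads for 3 pairs and as percent of counts for FTH1 and FTL together, with the mean and SD of each group (n = 3 each). The FTH1 to FTL ratio lies below 1 read per read (log2 of 0, dashed line) in all untreated and above it in all treated libraries, and the ACO1 to IREB2 ratio also separates the groups.

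Among the iron regulatory proteins, ACO1 (ENSG00000122729, chromosome 9, 32384603 to 32454769) encodes the form that acts as cytosolic aconitase when it carries an iron-sulfur cluster. It had 40.8, 38 and 61.7 CPM in untreated and 91.5, 87.6 and 106 CPM in treated libraries. The lowest treated library lay above the highest untreated one, and untreated replicate 3 was again the highest of its group. ACO1 rose from 46.9 ± 12.9 to 95 ± 9.6 CPM (SD, n = 3 in both groups), which is a log2FC of 1.02 (SE 0.23, 95% interval 0.50 to 1.53), at an edgeR adjusted p of 0.025. Without replicate 3 of both groups it was 1.19 (edgeR adjusted p 0.00438). The call was lost with library totals in place of TMM (edgeR adjusted p 0.0686). It was also lost without untreated replicate 1 (0.0732) or 2 (0.124) and without treated replicate 1 (0.0628) or 3 (0.108). Its log2FC stayed between 0.89 and 1.26 over 15 alternatives, with adjusted p from 0.000289 to 0.124.

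IREB2, the partner that is degraded when iron is plentiful (ENSG00000136381, chromosome 15, 78437431 to 78501453), was the scarcest of the 8, with 115 reads in total. It had 15, 14 and 39 reads in untreated and 10, 22 and 15 in treated libraries, or 3.93, 3.62 and 8.88 CPM against 2.89, 4.97 and 4.28 CPM. The groups overlapped, and the log2FC of -0.44 (SE 0.45, 95% interval -1.45 to 0.58) had an edgeR adjusted p of 0.707. Without replicate 3 of both groups the value was 0.08, and without untreated replicate 3 alone 0.10. No difference was detected at this depth, and the interval spans both directions.

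ACO1 gave 10.4, 10.5 and 6.95 reads per read of IREB2 in untreated and 31.7, 17.6 and 24.7 in treated libraries. All treated ratios lay above all untreated ones. The log2 difference was 1.40, a 2.63-fold shift, again at the smallest exact permutation p of 0.1 (0.2 adjusted), and it ranged from 1.18, without replicate 3 of both groups, to 1.62, without treated replicate 2, when libraries were left out.

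On the uptake side, TFRC (ENSG00000072274, chromosome 3, 196027183 to 196082096) is the gene with the 4 pattern matches printed above. It had 20.9, 35.4 and 81.5 CPM in untreated and 17.9, 31.6 and 53.6 CPM in treated libraries. The spread within each group exceeded the difference between them, and replicate 3 was the highest and replicate 1 the lowest in both. Its log2FC was -0.42 (SE 0.51, 95% interval -1.58 to 0.73, edgeR adjusted p 0.763) and turned to 0.28 without untreated replicate 3. It was -0.17 without replicate 3 of both groups.

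STEAP3 (ENSG00000115107, chromosome 2, 119223831 to 119265652), which reduces iron released from transferrin, had 109, 99.5 and 125 CPM in untreated and 93.6, 70 and 76.2 CPM in treated libraries. Every treated library lay below every untreated one. The log2FC of -0.48 (SE 0.19, 95% interval -0.90 to -0.05) had an unadjusted p of 0.0315 and an edgeR adjusted p of 0.193, and was not past the threshold in any of 15 alternatives. It was -0.35 without replicate 3 of both groups.

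Ferritin reads were weighed against TFRC reads as storage against uptake. There were 485, 289 and 184 ferritin reads per TFRC read in untreated and 845, 406 and 572 in treated libraries. Untreated replicate 1 lay above treated replicate 2, so the groups overlapped. The log2 difference of 0.98 gave an exact permutation p of 0.2 (0.267 adjusted), and was 0.65 without replicate 3 of both groups.

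Release of iron was represented by NCOA4 and HMOX1. NCOA4 (ENSG00000266412, chromosome 10, 46005088 to 46030623), the ferritin receptor of autophagy, had 149, 172 and 235 CPM in untreated and 107, 154 and 161 CPM in treated libraries. The ranges overlapped at treated replicates 2 and 3, with a log2FC of -0.40 (SE 0.23, 95% interval -0.93 to 0.13, edgeR adjusted p 0.415), or -0.29 without replicate 3 of both groups.

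HMOX1 (ENSG00000100292, chromosome 22, 35380361 to 35394214) had 110, 115 and 348 CPM in untreated and 73.1, 64.8 and 552 CPM in treated libraries. Treated replicate 3 was the highest of the 6 and the other treated libraries were the lowest, so the treated group alone spanned the whole range. Over all 6 libraries the log2FC was 0.26 (SE 0.80, 95% interval -1.54 to 2.06, edgeR adjusted p 0.921). Without replicate 3 of both groups it turned to -0.71 (SE 0.18, 95% interval -1.11 to -0.31), at an edgeR adjusted p of 0.0397. Without treated replicate 3 alone it was -1.47 (edgeR adjusted p 0.218), and without untreated replicate 3 alone it was 1.03 (0.41). In that fit without replicate 3 of both groups, FTH1 and ACO1 were called higher and HMOX1 lower among the 8. There, 8.09% of 10033 genes were called, 5.62% higher and 2.47% lower. The libraries of that fit were chosen after values of these genes were seen, so its calls among the 8 are no independent support.

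**Figure D3:**
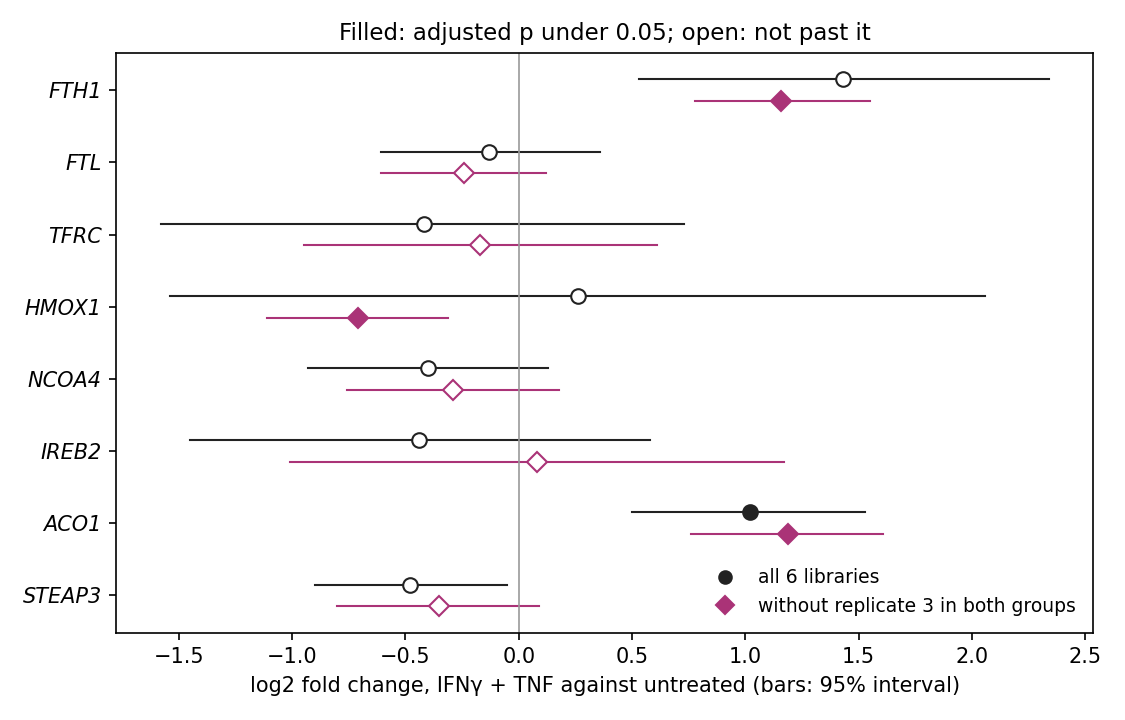
Log2FC (treated against untreated) of each of the 8 genes with its 95% interval, for all 6 libraries (circles) and without replicate 3 of both groups (diamonds), filled where the edgeR adjusted p was under 0.05. ACO1 is filled in both fits, FTH1 and HMOX1 are filled in the fit without replicate 3 but not with all 6 libraries, and HMOX1 moves from 0.26 to -0.71.

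Levels of the 8 genes were ordered by CPM, since 1 read stands for 1 RNA molecule and counts are then not divided by length. In untreated cells FTL led with 6899 ± 1035 CPM and FTH1 followed with 4904 ± 1777 CPM (SD, n = 3 each). HMOX1 (191 ± 136), NCOA4 (185 ± 44.5) and STEAP3 (111 ± 12.9) came next, then ACO1 (46.9 ± 12.9), TFRC (46 ± 31.6) and IREB2 (5.48 ± 2.95). The ranges of mean ± SD overlapped between the neighbours FTL and FTH1, HMOX1 and NCOA4, and ACO1 and TFRC. Within each untreated library FTL still had more reads than FTH1, as given above. In treated cells FTH1 (13222 ± 7933 CPM) stood before FTL (6318 ± 1773), and ACO1 (95 ± 9.6) before STEAP3 (79.9 ± 12.2). The ranges of mean ± SD overlapped within each of these pairs, and between HMOX1 (230 ± 279) and NCOA4 (140 ± 29.2). Within each treated library FTH1 had more reads than FTL. ACO1 then stood above TFRC (34.4 ± 18) with no overlap of their mean ± SD ranges, and IREB2 (4.04 ± 1.06) was last.

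Profiles like that of ACO1 were sought among 6761 tested genes averaging 10 CPM or more, by the root mean square difference of centred log2 CPM over the 6 libraries. The nearest was PLAAT3, at 0.10, which went from 136 ± 50.8 to 267 ± 44.2 CPM (SD, n = 3 each). SFT2D2 was next at 0.11, from 16.9 ± 3.88 to 39.1 ± 7.38 CPM. SFT2D2 was called higher (edgeR adjusted p 0.0176) and PLAAT3 was not called (edgeR adjusted p 0.0594).

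The remaining genes of iron and heme metabolism formed a list of 79, of which 51 were tested, 13 had no count and 23, those 13 included, had 3 counts or fewer in every library. Of the 51, 3 were called higher, 2 lower and 46 were not called, with a median log2FC of -0.03, equal to that of all genes tested. These counts are near the background of 5.58% higher and 2.55% lower and are no result about the list. The same 5 were called without replicate 3 of both groups.

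SLC25A28, which encodes the mitochondrial iron importer mitoferrin-2, rose from 25.7 ± 4.44 to 113 ± 17.9 CPM (SD, n = 3 in both groups), which is a log2FC of 2.13 (SE 0.22), and its edgeR adjusted p was 0.000356. It was called in all 14 alternatives. None of the other 16 genes tested for mitochondrial iron and iron-sulfur cluster assembly was called. MAFF, a small MAF protein that pairs with the regulators of HMOX1, rose from 5.56 ± 2.49 to 39.3 ± 10.8 CPM, a log2FC of 2.82 (SE 0.36, edgeR adjusted p 0.00133), also in all 14 alternatives. NFE2L2, the activator of the antioxidant response, was at 22.4 ± 17.8 and 34.1 ± 18.8 CPM (edgeR adjusted p 0.684). The repressor BACH1 was at 2.63 ± 2.02 and 3.94 ± 0.421 CPM (edgeR adjusted p 0.694). The log2FC of NFE2L2 was 0.60, and 1.46 without replicate 3 of both groups (edgeR adjusted p 0.162). That of BACH1 was 0.55, and 1.26 without those libraries (edgeR adjusted p 0.292). Over the alternatives these values ran from 0.21 to 1.46 for NFE2L2 and from 0.16 to 1.31 for BACH1, and neither was called in any.

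Heme oxygenase 2 (HMOX2), the constitutive counterpart of HMOX1, rose from 211 ± 50.1 to 406 ± 50.1 CPM, with a log2FC of 0.95 (SE 0.22, edgeR adjusted p 0.0275). Its call was lost without untreated replicate 2 (edgeR adjusted p 0.0697) and without treated replicate 1 (0.101), 2 (0.0697) or 3 (0.0809). SLC48A1, the heme transporter HRG1, fell from 165 ± 49.6 to 84.9 ± 14.7 CPM, a log2FC of -0.95 (SE 0.24, edgeR adjusted p 0.046). That call lay at the threshold and was lost in 8 of 14 alternatives, with adjusted p of 0.0507 under library totals, 0.0535 under the stricter filter, 0.0521 in limma voom, and 0.0601, 0.06, 0.15, 0.174 and 0.0848 without untreated replicates 1 or 2 or treated replicates 1, 2 or 3. ERFE, which encodes the hormone erythroferrone, fell from 16.5 ± 2.5 to 7.55 ± 0.961 CPM (log2FC -1.12, edgeR adjusted p 0.0296). It was not past the threshold without untreated replicates 1 (0.12) or 2 (0.112) or treated replicates 1 (0.106), 2 (0.122) or 3 (0.0836).

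None of the 4 tested uptake genes, 5 chaperone and ferritin turnover genes or 8 heme synthesis genes was called, with medians of 0.39, -0.11 and -0.36. SLC11A2, the transporter DMT1, was at 15.5 ± 3.5 and 21.3 ± 6.29 CPM and SLC39A14, the transporter ZIP14, at 57 ± 5.86 and 79 ± 20.7 CPM in untreated and treated cells, with edgeR adjusted p of 0.473 and 0.295. PCBP1, the chaperone that loads ferritin, was at 513 ± 61.1 and 540 ± 64.5 CPM (edgeR adjusted p 0.894). SLC40A1, which encodes the iron exporter ferroportin, had 0 counts in all 6 libraries, which allows up to 3 counts per library, or 0.681 to 0.827 CPM before TMM scaling. Its last 500 exonic bases share none with another gene on the same strand.

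**Figure D4:**
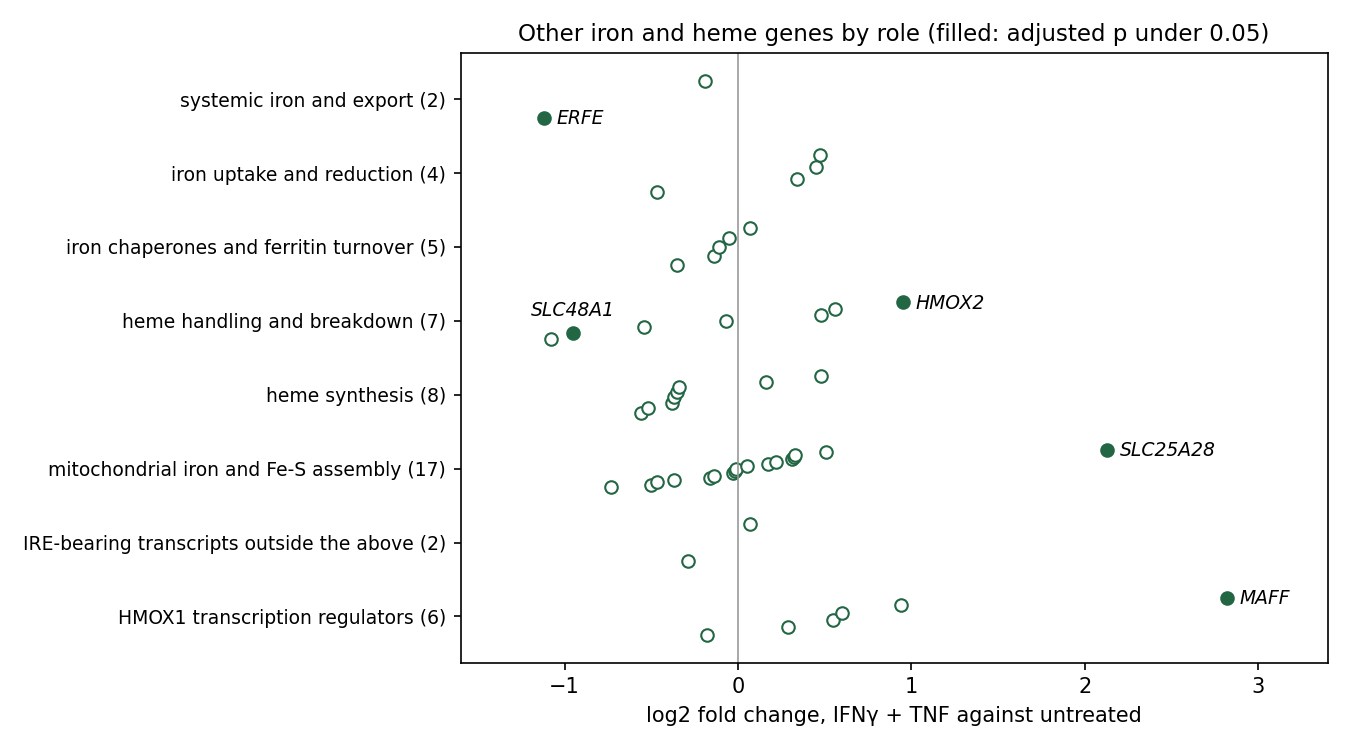
Log2FC (treated against untreated) of the 51 other iron and heme genes tested, in rows by role with the number tested in brackets, filled and named where the edgeR adjusted p was under 0.05. The 5 filled points are MAFF, SLC25A28 and HMOX2 to the right of 0 and SLC48A1 and ERFE to the left.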

How the data were processed

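The deposited values are counts of reads per gene, made with featureCounts 2.0.1 in long-read mode with strand-specific counting of exons of Ensembl release 105 on GRCh38, per the file headers. The submitters' processing notes list minimap2 2.24, SAMtools 1.16 and featureCounts 2.0.0. Runs lasted 72 h and reads with Q above 7 were kept, per the series' design text. Neither multi-mapping nor multi-overlap counting was set, per the file headers, so reads over exons of several genes are left out by that program's defaults. Alignment names in all 6 headers carry the word dmso; groups were taken from the sample titles.

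The 8 genes and the gene lists were chosen with earlier results of these data known. Gene IDs were named by lookup, and 61369 of 61541 matched. All genes were fitted with edgeR 4.0.16 in R 4.3.3 (quasi-likelihood F test, TMM, filterByExpr, group as sole term, Benjamini-Hochberg adjustment over 10067 genes, threshold 0.05). Each SE was derived from the fold change and its F statistic. Within-library ratios were tested by exact permutation of the group labels, 2-sided. The script was tested on simulated data. Named genes were the 8, list genes past the threshold, 7 list genes named whatever their result, pseudogenes with a count, 5 cytokine responders and the 2 profiles nearest to each called gene. From the check lists, 2 genes were left out and are not reported here. The labels call replicates biological; 3 per group limits the precision, and intervals and count limits cover counting error only where no replicates enter.

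Alternatives were DESeq2 1.42.0, limma 3.58.1 voom, DESeq2 size factors, library totals, no filter, at least 1 CPM in every library, pseudogene counts added, the replicate number as a block, and leaving out each library. Omitting replicate 3 of both groups was added after the data were seen.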

Additional observations from a re-analysis of the deposited data

How the results depend on the processing

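The number of the 8 genes called higher, 1, became 0 with library totals and 2 with no filter, in DESeq2, with the replicate block and without replicate 3 of both groups, and 0 to 2 without any 1 library. The number called lower, 0, became 1 without replicate 3 of both groups. In the wider list the number called lower, 2, became 1 under the stricter filter and in limma voom, 3 with DESeq2 size factors, no filter, DESeq2 and the replicate block, and 0 to 5 without 1 library. The number called higher stayed between 2 and 4 around the value of 3.

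Signs that turned, all in genes that were not called over the 6 libraries, were these. HMOX1 was at -0.27 in limma voom, -0.23 with the replicate block, -1.47 without treated replicate 3 and -0.71 without replicate 3 of both groups. DESeq2 gave HMOX1 no adjusted p. FTL was at 0.00 without untreated replicate 3 and 0.07 without treated replicate 2. TFRC was at 0.28 without untreated replicate 3, and IREB2 at 0.10 without it and 0.08 without replicate 3 of both groups. PCBP1 was at -0.03 with library totals and without untreated replicate 3, and at -0.01 without treated replicate 1 and without replicate 3 of both groups. Without any 1 library, log2 fold changes ran from -0.37 to 0.07 for FTL, -0.88 to 0.28 for TFRC, -1.47 to 1.03 for HMOX1, -0.66 to 0.10 for IREB2 and -0.03 to 0.20 for PCBP1. The causes were not tested. The 4 within-library measures kept their sign without any 1 library and without replicate 3 of both groups.

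The replicate numbers were not taken to pair the libraries in the main fit, because the labels name no batch shared by the same number. Deviations from the group means correlated at 0.65, -0.00 and 0.37 for numbers 1, 2 and 3. Whether the numbers pair the libraries was not tested. With the replicate block FTH1 had a log2 fold change of 1.33 (edgeR adjusted p 2.59e-08). For the within-library measures the block leaves the mean difference as it was by construction (1.48 for FTH1 to FTL), and the exact p within pairs was 0.25, the smallest that 3 pairs allow. Among the 8, depth limits IREB2 most, with 10 to 39 reads per library.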
